A study of Mus musculus with 20 samples.

Results

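Messenger RNA of 7 genes linked to T cell anergy, Cblb, Rnf128, Itch, Nedd4, Dgka, Dgkz and Ndrg1, was followed across 12 libraries of mouse CD8 T cells. The 7 genes were chosen by name from the 46603 genes of the count table, with earlier results of these data known. Their counts and medians beside those of all genes are therefore descriptive. All 7 passed the filter on low counts that left 13432 genes for testing. Thapsigargin (TG) is an inhibitor of the SERCA calcium pumps, which return calcium to the endoplasmic reticulum, so that stores empty and calcium enters the cell without engagement of the antigen receptor. Control-guide OT-I/Cas9 CD8 T cells were resting or were activated on plate-bound anti-CD3 (2.5 µg/mL for 24 hours), each with TG (50 ng/mL) or DMSO vehicle for 8 hours. OT-I/Cas9 CD8 T cells with an Atp2a2 knockout (KO; Atp2a2 encodes the SERCA2 pump) received vehicle only, and were labelled activated or resting. Each of the 6 T cell groups had 2 libraries. Control-guide B16F10 melanoma cells with TG (50 ng/mL) or vehicle for 8 hours, also with 2 libraries each, served as a comparison outside T cells. All T cells carried the OT-I receptor transgene and Cas9 and were kept in IL-2, IL-7 and IL-15 under puromycin, so resting cells were cytokine-fed cells without anti-CD3, and no group with anti-CD28 or with naive cells was analysed here. The labels do not say whether the 2 libraries of a group came from separate cultures, so the p-values below measure only the spread between these libraries, which may be technical.

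Anergy is a state in which a T cell that has met antigen without co-stimulation responds poorly to later stimulation. Calcium entry without the remaining receptor signals, as with an ionophore, is a textbook way to bring it about, through calcineurin and the transcription factor NFAT acting with little AP-1. The ubiquitin ligases Cbl-b (Cblb), GRAIL (Rnf128), Itch and Nedd4 limit receptor signalling in part by marking signalling proteins for removal, and Nedd4 has also been described as an aid to activation through its action on Cbl-b. Diacylglycerol is the lipid messenger that carries the receptor signal to RasGRP and protein kinase C, and the kinases DGK-alpha (Dgka) and DGK-zeta (Dgkz) end that signal by phosphorylating it. Ndrg1 is a stress- and hypoxia-responsive protein that has been described as a factor of T cell clonal anergy. Most of this knowledge comes from CD4 T cells.

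The genes were placed on GRCm38 with the GENCODE M21 annotation, which lists all 7 as protein coding. Cblb lies on the plus strand at chr16:52031225-52208048, Rnf128 on the plus strand at chrX:139563316-139673145, Itch on the plus strand at chr2:155133509-155226855 and Nedd4 on the plus strand at chr9:72662346-72749852. Dgka lies on the minus strand at chr10:128720134-128744855, Dgkz on the minus strand at chr2:91932824-91975864 and Ndrg1 on the minus strand at chr15:66929318-66969640. Promoter windows of 250 bases before the transcription start were taken from RefSeq (GRCm38.p6) for 5 of the 7 genes, with 10 starts in all. The 4 windows below are shown because Cblb and Rnf128 had the largest changes under TG in resting cells, Dgka was the kinase that fell most under anti-CD3, and the second start of Nedd4 was the single window with an AP-1 match. They cover chr16:52031299-52031548 on the plus strand (Cblb, inside the GENCODE gene), chrX:139610370-139610619 on the plus strand (Rnf128, inside the gene), chr10:128745085-128745334 on the minus strand (Dgka, the first of 4 starts, upstream of the gene) and chr9:72693048-72693297 on the plus strand (Nedd4, inside the gene). Capitals mark the NFAT core GGAAA and the AP-1 motif TGANTCA on either strand, so a core on the other strand reads TTTCC.
Cblb: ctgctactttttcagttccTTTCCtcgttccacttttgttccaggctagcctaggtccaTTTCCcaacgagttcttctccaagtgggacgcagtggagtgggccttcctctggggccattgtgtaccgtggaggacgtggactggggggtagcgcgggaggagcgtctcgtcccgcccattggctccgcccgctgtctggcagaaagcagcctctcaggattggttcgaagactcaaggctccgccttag
Rnf128: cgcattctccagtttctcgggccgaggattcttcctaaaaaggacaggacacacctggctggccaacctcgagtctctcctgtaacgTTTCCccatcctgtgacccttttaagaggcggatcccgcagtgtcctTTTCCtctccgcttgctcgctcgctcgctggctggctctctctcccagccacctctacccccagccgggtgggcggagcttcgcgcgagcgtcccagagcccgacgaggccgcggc
Dgka: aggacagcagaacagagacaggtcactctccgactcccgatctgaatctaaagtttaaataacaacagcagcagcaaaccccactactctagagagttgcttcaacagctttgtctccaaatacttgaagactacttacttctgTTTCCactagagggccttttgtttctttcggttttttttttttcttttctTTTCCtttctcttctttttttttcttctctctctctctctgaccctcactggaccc
Nedd4: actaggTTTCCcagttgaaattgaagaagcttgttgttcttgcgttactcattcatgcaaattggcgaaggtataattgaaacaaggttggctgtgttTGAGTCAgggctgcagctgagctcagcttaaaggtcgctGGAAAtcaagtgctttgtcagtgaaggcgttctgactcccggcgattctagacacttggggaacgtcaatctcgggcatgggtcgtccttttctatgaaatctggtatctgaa

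The Cblb, Rnf128 and Dgka windows above held 2 NFAT cores each and no AP-1 motif, and the Nedd4 window held 2 NFAT cores and 1 AP-1 motif. Of the 10 windows of the 5 genes, 7 held GGAAA and 1 held TGANTCA, without overlap between the motifs. Across all 32851 RefSeq windows of the same length, 55.6% held GGAAA and 6.75% held TGANTCA, so the short NFAT core is common in any window. The EGR core GTGGGCG, present in 7.02% of all windows, was found once in Rnf128 and once in the second start of Dgkz. The core ACGTG of hypoxia-inducible factors was present in 16.6% of all windows. It was found in Cblb, the fourth start of Dgka, both starts of Dgkz and the first start of Nedd4. Neither the FOXO motif GTAAACA (3.17% of all windows) nor the ATF4 and CHOP motif TGATGNAA (3.45%) was found in any of the 10. These matches describe letters in the windows and not bound sites.

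The 12 T cell libraries held between 9985311 and 17462770 counts. Levels below are in CPM, a gene's count for every 1000000 counts of a library after scaling by the trimmed mean of M values, and ± gives the SD of 2 libraries. The targeted gene Atp2a2 averaged 435 ± 1.25 CPM in the activated KO libraries, against 676 ± 16.4 CPM in activated control libraries with vehicle. In the libraries labelled resting Atp2a2 KO it averaged 454 ± 2.18 CPM, above the 225 ± 0.382 CPM of resting control libraries with vehicle and near the activated KO libraries. Ifng, an activation cytokine, averaged 7389 ± 34.9 CPM in the libraries labelled resting Atp2a2 KO, against 9.40 ± 0.554 CPM in resting controls and 7601 ± 304 CPM in activated KO cells. Over 13432 genes, the log2 levels of the libraries labelled resting Atp2a2 KO had a Pearson r of 0.996 with activated KO libraries and 0.916 with resting control libraries. Those 2 libraries are therefore kept apart below, and no direction at rest is drawn from them.

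All 10 CD8 T cell markers had counts in every group. Their summed level was 8009 to 8224 CPM in resting cells with TG, against 6054 to 6063 CPM with vehicle, and 5132 to 5169 CPM in activated cells with TG, against 4382 to 4385 CPM with vehicle. The activated KO libraries had 4650 to 4865 CPM and those labelled resting 4796 to 4832 CPM. The sum at rest hides opposite changes, as 5 of the 10 markers were called higher with TG and 4 lower. Among all genes 34.1% were called higher and 35.2% lower. Cd8a (log2 change 1.52) and Cd8b1 (1.40) rose most, while Cd3g (-0.56), Lck (-0.51), Cd3d (-0.35) and Cd3e (-0.10) fell. In such bulk libraries, fewer cells of a type and less RNA per cell cannot be told apart. Cd4 and Foxp3 reached at most 1.14 and 0.547 CPM, and the 4 CD4 and regulatory markers summed to 54.1 to 169.8 CPM through Zbtb7b and Ikzf2. That sum was 168 to 169.8 CPM in resting cells with TG, against 87.0 to 95.8 CPM with vehicle, 141 to 157 CPM in activated cells with TG and 102 to 109 CPM in activated KO cells, against 54.1 to 56.1 CPM in activated cells with vehicle. The 5 B cell markers summed to at most 5.0 CPM and the 6 myeloid markers to at most 1.95 CPM in any library, with Ms4a1 and S100a8 at 0. Of the 4 NK cell markers only Eomes exceeded 1 CPM, and the list summed to 60.5 to 60.8 CPM in resting cells with TG, against 177 to 186 CPM with vehicle. In activated cells it summed to 26.6 to 29.5 CPM with TG and 96.3 to 99.0 CPM in KO cells, against 85.4 to 87.0 CPM with vehicle. The 6 melanocyte markers summed to 0 to 1.04 CPM in KO libraries, against 3.95 to 6.51 CPM in control T cell libraries. The part of these differences in the changes below was not tested.

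Among resting control cells with vehicle, the level per kilobase of annotated exon placed Dgka first, at 106 ± 1.07 CPM per kilobase. Dgkz (48.1 ± 0.00954) and Ndrg1 (47.4 ± 1.75) came next in CPM per kilobase and were within the spread of Ndrg1. Nedd4 (23.8 ± 0.306), Cblb (21.8 ± 0.0644) and Itch (17.7 ± 0.140) followed, and Rnf128 was lowest at 3.58 ± 0.686 CPM per kilobase. Dgka made up 28.8% of the summed per-kilobase level of the 7 genes in resting cells with TG, against 39.4% with vehicle. Its own level was 102 ± 1.40 CPM per kilobase with TG, so the lower share came mainly from higher levels of other members. Cblb made up 17.3% with TG, against 8.12% with vehicle. Dividing by the longest transcript instead of the exon union kept 5 of the 7 genes at the same rank.

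**Figure D1:**
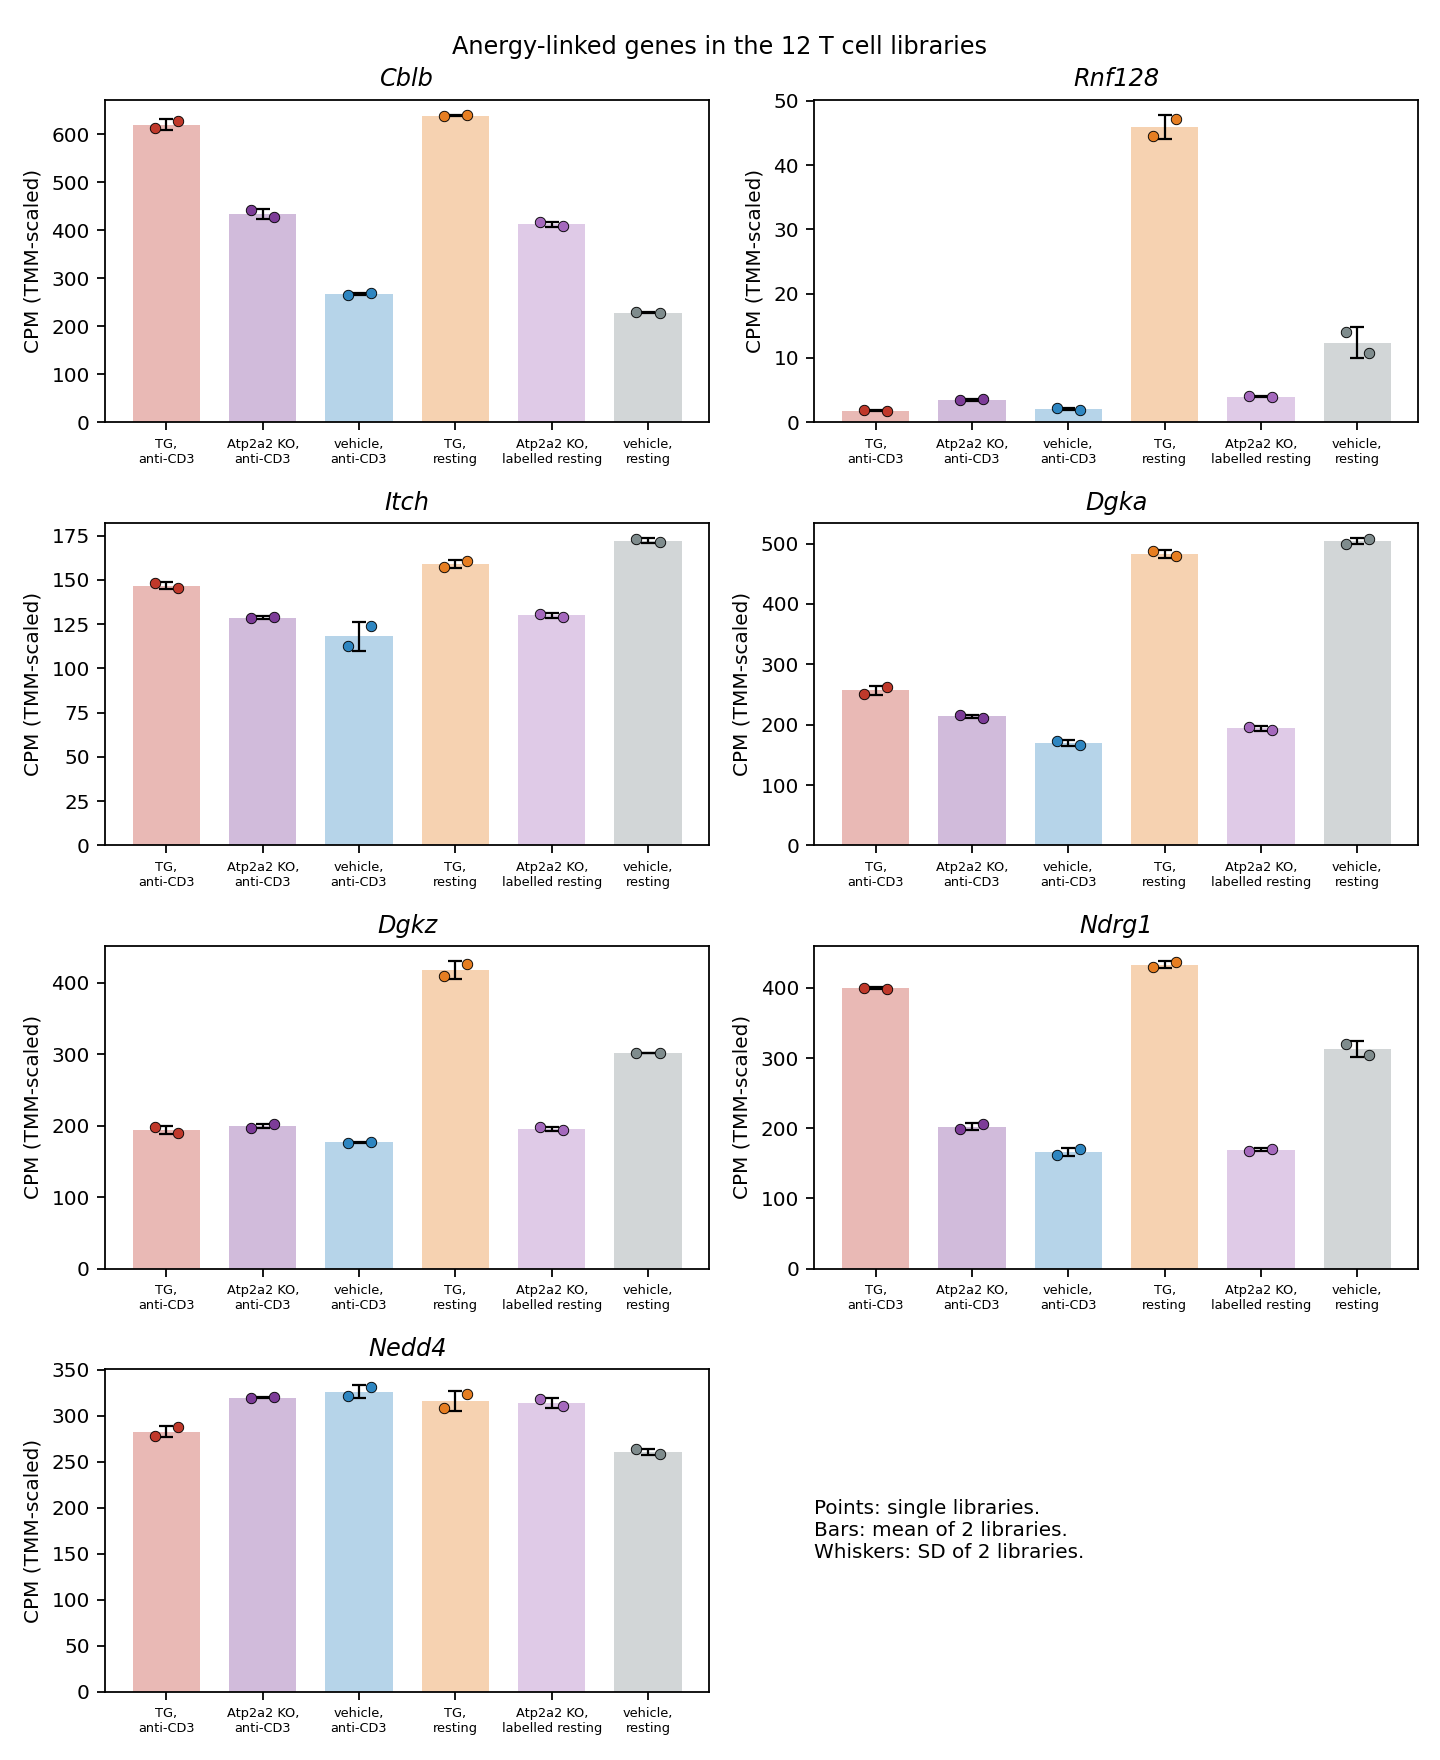
CPM of the 7 genes (vertical axes, from 0, each gene on its own scale) in the 6 T cell groups (horizontal axes), with points for single libraries, bars for the mean and whiskers for the SD of 2 libraries. Rnf128 stands at 45.9 CPM in resting cells with TG and at or below 4.00 CPM in the 4 groups that were activated or labelled KO, while Cblb is at 638 and 619 CPM in both TG groups.

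TG given to resting cells was, of the comparisons made, the closest to calcium entry without receptor signalling. Calcium was not measured, and effects of the emptied stores themselves cannot be told apart from those of calcium entry in this design. A gene was called where edgeR's quasi-likelihood test, adjusted by Benjamini and Hochberg's method across every tested gene, gave an adjusted p below 0.05. By that threshold 5 of the 7 genes were higher and 1 was lower with TG. Of all 13432 genes, 34.1% were called higher and 35.2% lower in that comparison, or 69.2% in either direction, so a call by itself says little and the sizes matter more. The median log2 change was 0.47 over the 7 genes and 0.01 over all genes.

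Rnf128, which encodes the membrane-anchored ligase GRAIL, had 44.6 and 47.3 CPM in resting cells with TG, against 14.1 and 10.7 CPM with vehicle. The libraries did not overlap, and the level was 3.67-fold higher with TG (log2 change 1.88, SE 0.097, edgeR adjusted p = 1.0e-24). It rested on few counts, 593 and 549 with TG and 175 and 116 with vehicle. Cblb, whose product restrains phosphoinositide 3-kinase and phospholipase C signalling, had 638 and 639 CPM with TG, against 229 and 228 CPM with vehicle. That was 2.80-fold higher (log2 change 1.48, SE 0.036, edgeR adjusted p = 4.1e-40). These 2 ligases moved more than 89.6% (Rnf128) and 84.7% (Cblb) of all tested genes in absolute log2 change.

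The HECT ligases moved little. Nedd4 had 308 and 324 CPM in resting cells with TG, against 264 and 259 CPM with vehicle, 1.21-fold higher without overlap (log2 change 0.27, SE 0.038, edgeR adjusted p = 5.4e-09). Itch, which in T cells acts with the Ndfip adaptors on JunB, had 157 and 161 CPM with TG, against 173 and 171 CPM with vehicle. It was called lower (log2 change -0.12, SE 0.043, edgeR adjusted p = 0.015), but this direction depended on the scaling. With raw library totals, which raised the median change of all genes by 0.12, the change of Itch was 0.00056, and DESeq2 gave an adjusted p of 0.10. Without the first library of either group the adjusted p was 0.082 (vehicle) and 0.14 (TG).

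Of the 2 kinases, Dgkz was called and Dgka was not. Dgkz had 409 and 426 CPM in resting cells with TG, against 302 and 302 CPM with vehicle, 1.38-fold higher (log2 change 0.47, SE 0.036, edgeR adjusted p = 4.2e-17). Dgka had 488 and 479 CPM with TG, against 500.1 and 507 CPM with vehicle, and was not called (log2 change -0.06, SE 0.035, edgeR adjusted p = 0.14). Its sign turned to 0.06 with raw library totals. Ndrg1 had 430.2 and 436 CPM with TG, against 321 and 304 CPM with vehicle, 1.39-fold higher without overlap (log2 change 0.47, SE 0.037, edgeR adjusted p = 5.4e-17).

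TG given to activated cells raised 5 genes and lowered 1, and the genes were not the same as at rest. Among all genes 32.6% were called higher and 32.4% lower, or 65.0% in either direction. The largest change was in Ndrg1, with 400.3 and 399 CPM in activated cells with TG, against 162 and 170.0 CPM with vehicle. This 2.41-fold difference (log2 change 1.27, SE 0.038, edgeR adjusted p = 2.6e-35) stood beside a level of 321 and 304 CPM in resting cells with vehicle. Cblb had 612 and 627 CPM with TG, against 266 and 269 CPM with vehicle, 2.32-fold higher (log2 change 1.21, SE 0.035, edgeR adjusted p = 4.3e-36). Neither gene had overlapping libraries.

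Dgka had 251 and 262 CPM in activated cells with TG, against 173 and 166 CPM with vehicle, 1.51-fold higher (log2 change 0.60, SE 0.039, edgeR adjusted p = 2.6e-20). Itch had 148 and 145 CPM with TG, against 112 and 124 CPM with vehicle (log2 change 0.32, SE 0.044, edgeR adjusted p = 7.0e-09). Dgkz had 198 and 190.3 CPM with TG, against 176 and 177 CPM with vehicle, a difference of 1.10-fold (edgeR adjusted p = 0.0020) whose call was lost without the filter on low counts (adjusted p = 0.37). Nedd4 had 278 and 287 CPM with TG, against 321 and 332 CPM with vehicle, and was called lower (log2 change -0.21, SE 0.037, edgeR adjusted p = 2.3e-06). Rnf128 had 1.88 and 1.76 CPM with TG, from 22 and 23 counts, against 2.22 and 1.97 CPM with vehicle, from 38 and 26 counts. No difference was detectable at that depth (log2 change -0.22, SE 0.28, edgeR adjusted p = 0.51).

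The effect of TG differed between activated and resting cells for all 7 genes by the interaction term of the same fit, which called 26.7% of all genes in the positive and 25.2% in the negative direction, 51.9% in all. The TG effect was larger on the log2 scale in activated cells for Ndrg1 (difference 0.80, edgeR adjusted p = 3.1e-19), Dgka (0.66, adjusted p = 3.9e-16) and Itch (0.43, adjusted p = 2.6e-08). It was smaller in activated cells for Rnf128 (difference -2.09, edgeR adjusted p = 2.7e-08), Nedd4 (-0.48, adjusted p = 2.3e-11), Dgkz (-0.33, adjusted p = 5.2e-07) and Cblb (-0.27, adjusted p = 7.0e-06). Cblb was the gene whose TG levels lay closest in both states, and it had no call between activated and resting cells with TG (log2 change -0.04, SE 0.034, edgeR adjusted p = 0.27). With raw library totals that difference was -0.10 at an adjusted p of 0.0037.

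**Figure D2:**
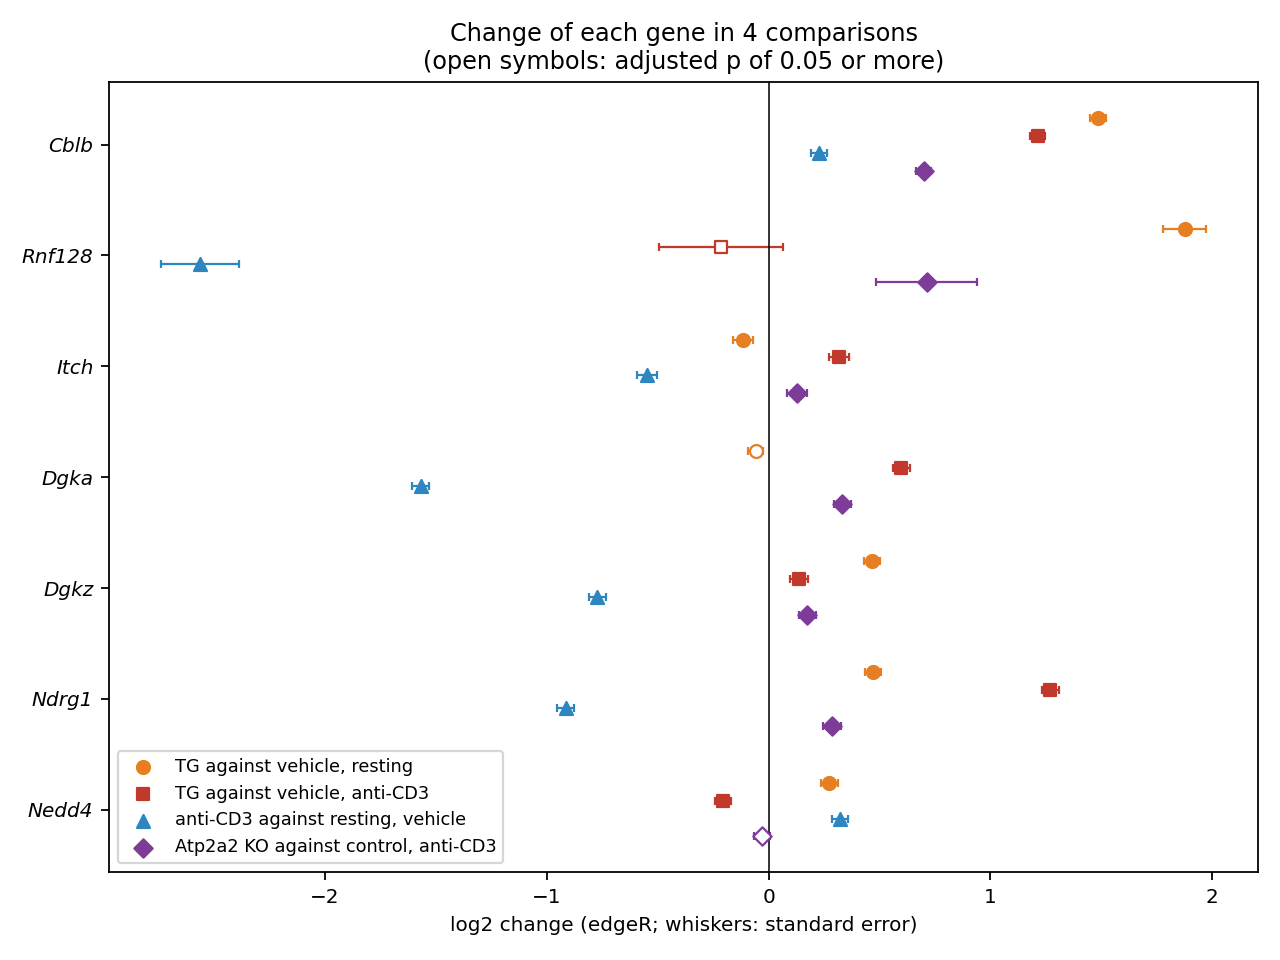
Log2 change of each gene (rows) in 4 comparisons (horizontal axis), with whiskers for the standard error and open symbols for an adjusted p of 0.05 or more. Cblb is to the right of 0 in all 4, from 0.23 to 1.48, while Rnf128 runs between -2.56 and 1.88.

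Anti-CD3 alone lowered Rnf128, Dgkz and Ndrg1, which were higher with TG alone, and it raised Cblb and Nedd4, which were also higher with TG alone. Itch was called lower in both comparisons, and Dgka was called lower with anti-CD3 and not called with TG alone. In activated against resting cells with vehicle, 5 genes were called lower and 2 higher, where 39.1% of all genes were called lower and 35.3% higher (74.4% in all). Rnf128 was 5.91-fold lower at 2.22 and 1.97 CPM in activated cells, against 14.1 and 10.7 CPM in resting cells (log2 change -2.56, SE 0.18, edgeR adjusted p = 1.9e-19). Dgka was 2.97-fold lower, with 173 and 166 CPM in activated cells, against 500.1 and 507 CPM in resting cells (log2 change -1.57, SE 0.038, edgeR adjusted p = 1.8e-40). Libraries of the 2 states did not overlap for any of the 7 genes. The share of all genes without overlap was not computed, so this cannot set the 7 apart from other genes.

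Ndrg1 (log2 change -0.92, SE 0.039), Dgkz (-0.77, SE 0.038) and Itch (-0.55, SE 0.044) also fell with anti-CD3, each at an edgeR adjusted p of 6.6e-17 or below. Nedd4 rose by 0.32 (SE 0.037, edgeR adjusted p = 3.5e-11) and Cblb by 0.23 (SE 0.037, edgeR adjusted p = 2.2e-07) on the log2 scale. Under TG, anti-CD3 lowered 6 of the 7 genes, among which Rnf128 was 25.2-fold lower in activated cells (log2 change -4.65, SE 0.14, edgeR adjusted p = 1.3e-34). Of all genes 31.9% were called lower and 32.0% higher in that comparison (63.8% in all). Dgkz (-1.10, SE 0.038) and Dgka (-0.91, SE 0.037) followed, and Nedd4 (-0.16), Ndrg1 (-0.12) and Itch (-0.12) fell by small amounts. The calls of Ndrg1 and Itch did not survive the loss of either activated TG library, with adjusted p between 0.053 and 0.16.

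TG alone and anti-CD3 alone were then set against each other. In resting cells with TG, 6 of the 7 genes were called higher than in activated cells with vehicle, beside 38.4% of all genes, and none lower, beside 36.6% of all genes. In either direction 75.0% of all genes were called, so this comparison has the highest background of those made. The largest difference was in Rnf128, 21.7-fold higher with TG alone (log2 change 4.44, SE 0.13, edgeR adjusted p = 3.7e-36). Dgka (1.51, SE 0.038), Ndrg1 (1.39, SE 0.038), Cblb (1.26, SE 0.035) and Dgkz (1.24, SE 0.037) differed by 2.36- to 2.85-fold and Itch by 0.43 (SE 0.044). Nedd4 had 308 and 324 CPM with TG alone, against 321 and 332 CPM with anti-CD3 alone, and these overlapped (log2 change -0.05, SE 0.037, edgeR adjusted p = 0.24). This comparison shares its resting TG libraries with that of TG at rest, and its activated vehicle libraries with those of anti-CD3 and of TG in activated cells. The comparisons of TG at rest and of anti-CD3 share the resting vehicle libraries, so they are not independent of each other.

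The order of the 6 T cell groups differed by gene. Cblb ran from resting and activated cells with TG (638 ± 1.04 and 619 ± 10.95 CPM), through activated KO cells and the libraries labelled resting Atp2a2 KO (434 ± 10.2 and 412 ± 5.33 CPM), to activated and resting control cells with vehicle (267 ± 2.46 and 228 ± 0.675 CPM). Neither the TG pair nor the KO pair differed beyond the threshold. Rnf128 was highest in resting cells, at 45.9 ± 1.87 CPM with TG and 12.4 ± 2.38 CPM with vehicle, and ran from 4.00 ± 0.0608 CPM in the libraries labelled resting Atp2a2 KO to 1.82 ± 0.0816 CPM in activated cells with TG. Dgka was also highest in resting cells, with 484 ± 6.66 CPM under TG and 504 ± 5.09 CPM under vehicle, and lowest in activated cells with vehicle at 169.7 ± 4.87 CPM. Dgkz was highest in resting cells with TG (417 ± 12.3 CPM), followed by resting cells with vehicle (302 ± 0.0598 CPM). Its next 3 groups, activated KO (199 ± 3.25 CPM), labelled resting KO (196 ± 2.64 CPM) and activated TG (194 ± 5.52 CPM), lay within their spread.

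Ndrg1 was led by both TG groups, at 433 ± 4.40 CPM in resting and 399.6 ± 0.958 CPM in activated cells, and its lowest groups, labelled resting KO (169.5 ± 1.84 CPM) and activated control with vehicle (166 ± 5.63 CPM), overlapped. Itch was lowest in activated control cells with vehicle (118 ± 7.94 CPM) and highest in resting ones (172 ± 1.36 CPM), and its KO groups, labelled resting (129.9 ± 1.24 CPM) and activated (129 ± 0.717 CPM), overlapped. Nedd4 was highest in activated control cells with vehicle (326 ± 7.44 CPM), and lowest in resting cells with vehicle (261 ± 3.35 CPM). Activated KO cells, resting cells with TG and the libraries labelled resting Atp2a2 KO had 319.9 ± 0.240, 316 ± 10.8 and 314 ± 5.28 CPM of Nedd4, and none was called against the highest group. Without the filter on low counts, resting cells with TG (log2 change -0.15) and the libraries labelled resting (-0.12) were called lower than that group. Nedd4 had the narrowest range of the 7, with its highest group 1.25-fold above its lowest, and Rnf128 the widest at 25.3-fold.

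Loss of Atp2a2 was compared with control in activated cells with vehicle. The 2 activated KO libraries differed more from each other than those of any other T cell group, with a chi-square per degree of freedom over genes of 3.10, against 1.45 to 1.94 in the others. 6 of the 7 genes were called higher and none lower in activated KO cells, where 17.5% of all genes were called higher and 19.6% lower, or 37.1% in either direction. The 7 genes had a median log2 change of 0.29, against -0.0043 over all genes. Cblb had 441 and 426 CPM in activated KO cells, against 266 and 269 CPM in activated control cells, 1.62-fold higher without overlap (log2 change 0.70, SE 0.035, edgeR adjusted p = 8.9e-24). Cblb moved more than 90.4% of all tested genes in absolute log2 change.

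Rnf128 had 3.39 and 3.56 CPM in activated KO cells, against 2.22 and 1.97 CPM in activated controls, from at most 58 counts a library (log2 change 0.71, SE 0.23, edgeR adjusted p = 0.010). Without the second activated control library its adjusted p was 0.071. Dgka had 216 and 211 CPM in KO cells, against 173 and 166 CPM in controls (log2 change 0.33, SE 0.039, edgeR adjusted p = 3.1e-10). Ndrg1 had 199 and 206 CPM in KO cells, against 162 and 170.0 CPM in controls, 1.22-fold higher (edgeR adjusted p = 2.6e-08). Dgkz differed by 0.17 on the log2 scale (SE 0.039, edgeR adjusted p = 0.00022), with 197 and 202 CPM in KO cells and 176 and 177 CPM in controls. The libraries of these genes did not overlap between KO and control. The share of all genes without overlap was not computed, so this cannot set them apart from other genes.

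Itch had 128 and 129 CPM in activated KO cells, against 112 and 124 CPM in controls. Its call (log2 change 0.13, SE 0.044, edgeR adjusted p = 0.017) was lost with DESeq2 (adjusted p = 0.14), without the filter (0.19), and without 3 of the 4 libraries compared. Nedd4 had 319.7 and 320.0 CPM in KO cells, against 321 and 332 CPM in controls, and was not called (log2 change -0.03, SE 0.036, edgeR adjusted p = 0.58). The values of TG in activated cells stand beside these: Cblb 1.21 and Ndrg1 1.27 under TG, and 0.70 and 0.29 under KO. TG and KO were set against the same activated control libraries.

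The libraries labelled resting Atp2a2 KO gave other directions depending on the control. Against resting controls with vehicle, 5 genes were called lower and 2 higher, where 35.9% and 33.7% of all genes were (69.6% in all), with Dgka at -1.38 (SE 0.038), Rnf128 at -1.64 (SE 0.17) and Cblb at 0.85 (SE 0.037) on the log2 scale. Against activated controls, 5 genes were called higher and none lower, where 15% and 16.6% of all genes were (31.5% in all). The largest change was in Rnf128 (log2 change 0.92, SE 0.24, edgeR adjusted p = 0.0019), from 42 and 39 counts, against 38 and 26 counts. Cblb came next, with 416 and 409 CPM, against 266 and 269 CPM (log2 change 0.63, SE 0.036, edgeR adjusted p = 2.8e-21). Without the first of the libraries labelled resting, 3 genes were called. Between activated KO libraries and those labelled resting, Ndrg1 alone of the 7 was called (log2 change 0.25, SE 0.041, edgeR adjusted p = 0.00016), with 199 and 206 CPM in activated KO cells, against 168 and 171 CPM. In that comparison 0.469% of all genes were called higher and 0.119% lower (0.588% in all). Without both libraries labelled resting, none of the 63 values of the 7 genes in the other comparisons changed direction or call.

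**Figure D3:**
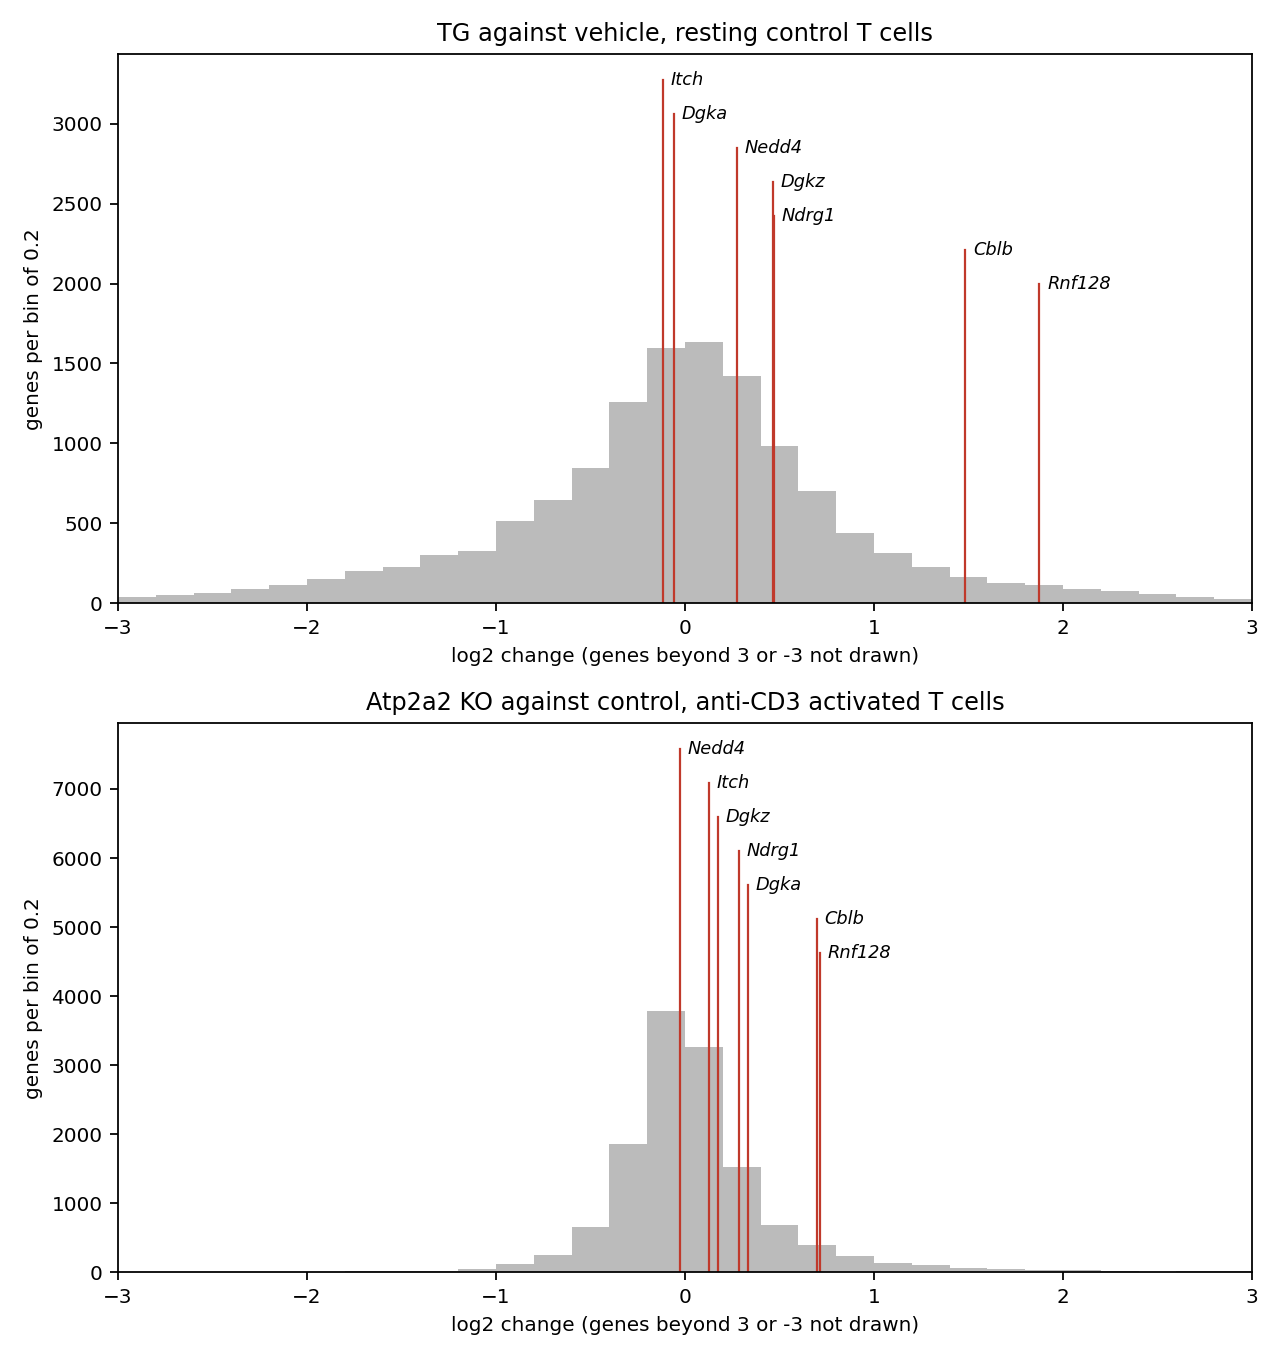
Histograms of the log2 change of all 13432 genes between -3 and 3 (vertical axes, genes per bin of 0.2) with red lines at the 7 genes, for TG in resting control cells (above) and Atp2a2 KO in activated cells (below). Cblb and Rnf128 lie at 1.48 and 1.88 in the upper panel and at 0.70 and 0.71 in the lower one, away from the bulk, while Itch and Nedd4 lie within it in both.

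Genes of the same pathways were counted for TG in resting cells, TG in activated cells, anti-CD3 with vehicle, and KO in activated cells, leaving out the 7 genes. Of all 13432 genes, TG raised 34.1% and lowered 35.2% at rest, and raised 32.6% and lowered 32.4% in activated cells. Anti-CD3 raised 35.3% and lowered 39.1%, and KO raised 17.5% and lowered 19.6%. Every list count below stands beside these shares, and no list was tested as a set. Of 19 other genes of diacylglycerol signalling, 14 were tested. TG raised 6 and lowered 6 in resting cells and raised 5 and lowered 7 in activated cells, anti-CD3 raised 3 and lowered 8, and KO raised 6 and lowered 4. The exchange factor Rasgrp2 averaged 10.4 ± 0.253 CPM in resting cells with TG, against 208 ± 5.67 CPM with vehicle (log2 change -4.32, SE 0.073, edgeR adjusted p = 6.6e-48). Rasgrp4, a related exchange factor, fell by 1.92 and the phospholipase Plcg2 by 1.62 on the log2 scale. In activated KO cells the kinase Prkch rose by 0.91, Rasgrp1 by 0.64 and the diacylglycerol kinase Dgkh by 0.67, the last with 24.3 ± 2.09 CPM in KO cells and 15.3 ± 1.06 CPM in controls.

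Of 14 other genes of the CBL and NEDD4 families and their adaptors, 11 were tested. TG raised 3 and lowered 6 at rest and raised 5 and lowered 4 in activated cells, anti-CD3 raised 1 and lowered 10, and KO raised 3 and lowered 1. Ubash3b, a phosphatase that binds CBL proteins and dampens receptor signalling, averaged 272 ± 11.7 CPM in resting cells with TG, against 74.1 ± 0.297 CPM with vehicle (log2 change 1.88, edgeR adjusted p = 1.7e-40). It was also higher with TG in activated cells (1.72) and in activated KO cells (1.08), and its relative Ubash3a was lower with TG in resting (-0.77) and activated (-1.59) cells. Ndfip1, the membrane adaptor that recruits Itch and Nedd4, averaged 368 ± 1.17 CPM with TG, against 201 ± 6.09 CPM with vehicle at rest (0.87), and rose by 0.60 with TG in activated cells and by 0.49 in activated KO cells.

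Of 12 other ligases and partners of GRAIL, all tested, TG raised 6 and lowered 5 at rest and raised 7 and lowered 2 in activated cells. Anti-CD3 raised 4 and lowered 5, and KO raised 3 and lowered 2. Dtx1, a ligase described as an NFAT target in anergic T cells, moved against Rnf128 and Cblb under TG. It averaged 0.908 ± 0.311 CPM in resting cells with TG, against 19.6 ± 1.06 CPM with vehicle (log2 change -4.39, SE 0.22, edgeR adjusted p = 2.9e-25), and fell by 4.03 with anti-CD3. Traf6, a ligase of the NF-kB pathway, rose by 1.09 with TG at rest and by 0.61 in activated cells.

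The 20 anergy-linked factors and receptors were all tested. TG raised 15 and lowered 3 at rest and raised 12 and lowered 4 in activated cells, anti-CD3 raised 12 and lowered 7, and KO raised 10 and lowered 5. Over all genes TG raised 34.1% and lowered 35.2% at rest, and raised 32.6% and lowered 32.4% in activated cells. The shares were 35.3% and 39.1% for anti-CD3, and 17.5% and 19.6% for KO. Egr2, a transcription factor downstream of calcineurin, averaged 110.0 ± 1.95 CPM in resting cells with TG, against 1.93 ± 0.00670 CPM with vehicle (log2 change 5.82). The orphan receptor Nr4a3 averaged 1267 ± 26.3 CPM with TG, against 23.5 ± 0.0164 CPM with vehicle (5.75), and the co-receptor Nrp1 383 ± 5.52 CPM with TG, against 6.10 ± 0.778 CPM (5.98). In activated cells TG lowered Egr3 by 2.07 and Nfatc2, an NFAT gene, by 2.13 on the log2 scale, and KO raised Nrp1 by 2.46 and the inhibitory receptor Pdcd1 by 1.56. Anti-CD3 with vehicle also raised Egr2 (4.43), Nr4a1 (5.12) and Nr4a2 (4.42), which are genes of both activation and anergy.

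**Figure D4:**
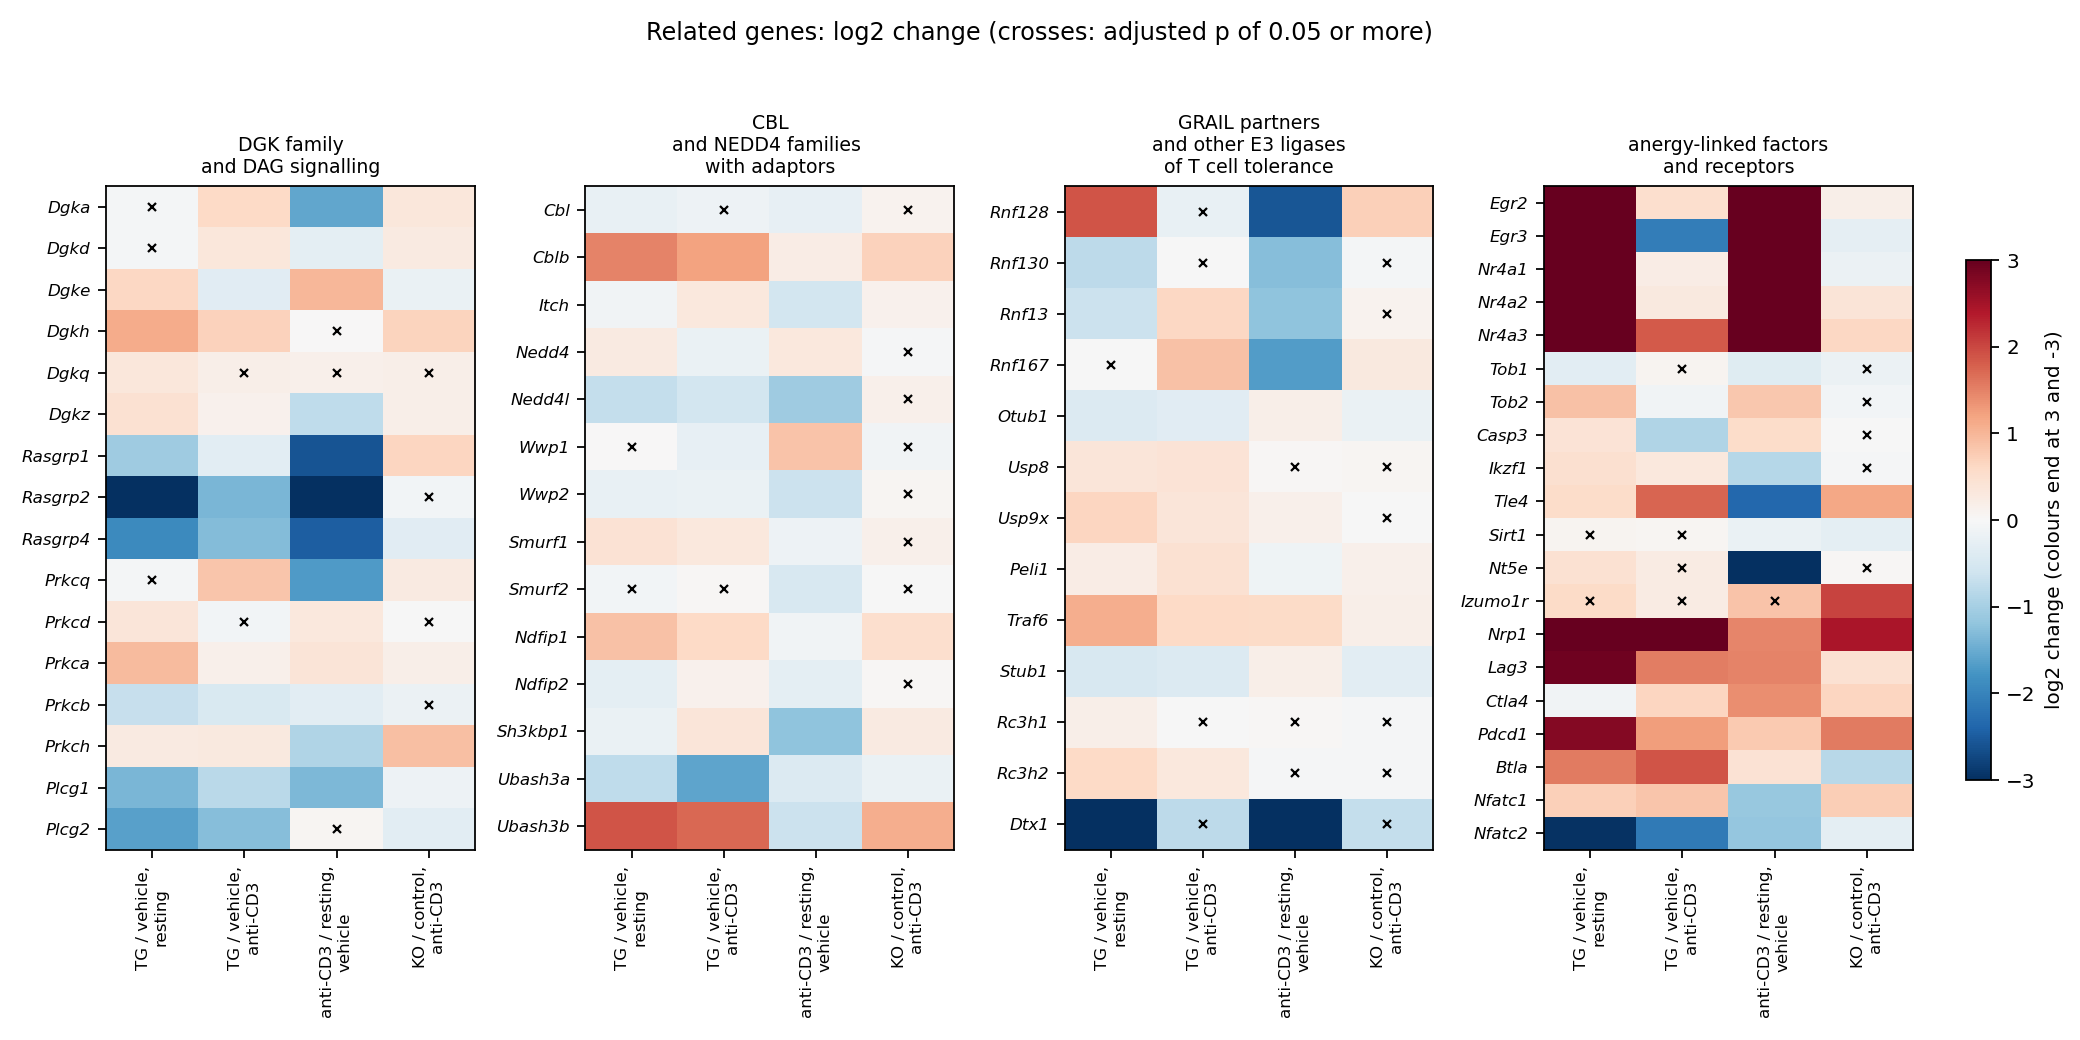
Heat maps of the log2 change of the tested genes (rows) in 4 related lists for 4 comparisons (columns), red for higher, blue for lower, colours ending at 3 and -3, and crosses at an adjusted p of 0.05 or more. Cblb and Ubash3b are red under TG in resting cells (1.48 and 1.88), whereas Rasgrp2 and Dtx1 are blue (-4.32 and -4.39).

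Of 14 substrates and signalling partners of the ligases, TG raised 3 and lowered 8 at rest and raised 7 and lowered 7 in activated cells, anti-CD3 raised 3 and lowered 11, and KO raised 4 and lowered 3. The adaptor Lat averaged 152 ± 4.30 CPM in resting cells with TG, against 374 ± 0.886 CPM with vehicle (log2 change -1.30), and fell by 1.26 with TG in activated cells. In activated KO cells the co-stimulatory receptor Cd28 rose by 0.83 and the kinase Zap70 by 0.80. Of 16 readouts of activation and calcineurin, TG raised 10 and lowered 3 at rest and raised 8 and lowered 8 in activated cells, anti-CD3 raised 11 and lowered 3, and KO raised 5 and lowered 7. Rcan1, a calcineurin target and inhibitor, averaged 54.0 ± 2.08 CPM in resting cells with TG, against 7.36 ± 1.08 CPM with vehicle (2.88), and Ifng 1491 ± 14.3 CPM, against 9.40 ± 0.554 CPM (7.31). Il2 averaged 0.688 ± 0.122 CPM in resting cells with TG, had no count in resting cells with vehicle and stood at 15.98 ± 0.325 CPM in activated cells with vehicle. In activated cells Il2 rose with TG to 30.4 ± 1.18 CPM (log2 change 0.92, SE 0.091, edgeR adjusted p = 3.6e-13) and fell with KO to 6.97 ± 0.136 CPM (-1.19, SE 0.12, edgeR adjusted p = 3.6e-12). Il2 was named here for its place as an anergy readout after its values were seen.

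Ndrg1 is known as a hypoxia-responsive gene, so 15 others of that kind and of its family were counted. TG raised 3 and lowered 8 at rest and raised 3 and lowered 11 in activated cells, anti-CD3 raised 6 and lowered 7, and KO raised 4 and lowered 3. Vegfa averaged 137 ± 2.76 CPM in resting cells with TG, against 60.8 ± 1.44 CPM with vehicle (log2 change 1.18), and Egln3, an oxygen-sensing hydroxylase, fell by 1.12 with TG in activated cells, where Ndrg1 rose by 1.27. Of 10 quiescence genes linked to FOXO factors, TG raised 2 and lowered 8 at rest and raised 5 and lowered 5 in activated cells, anti-CD3 raised 1 and lowered 9, and KO raised 3 and lowered 5. S1pr1, the receptor for exit from lymphoid tissue, fell by 3.55 and the transcription factor Klf2 by 2.61 with TG at rest, where Dgka, described as a FOXO target in T cells, was not called.

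Genes whose log2 CPM over the 12 libraries most resembled each member were taken from 9482 genes with a mean of at least 5 CPM. For Cblb these were Orai1 (Pearson r 0.995), the pore subunit of store-operated calcium entry, and Glrp1 (0.987). For Rnf128 they were Pip4k2c (0.988) and Max (0.988), and for Dgkz Ripor1 (0.994) and Pip4k2c (0.989). Dgka was nearest to Add3 (0.996) and Heca (0.995), Itch to Ap3m2 (0.986) and Aspscr1 (0.984), Ndrg1 to Dock11 (0.990) and Tcta (0.987), and Nedd4 to Egr3 (0.966) and Bend3 (0.964). Among the 7 genes themselves, the closest pairs were Rnf128 with Dgkz (0.978) and Itch with Dgka (0.943), and the most opposed Itch with Nedd4 (-0.737). The 12 points fall into 6 groups of 2 and share libraries, so these values describe likeness only.

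Control-guide B16F10 melanoma cells, given the same TG dose and time, were used as the sole comparison outside T cells. There TG raised 4 of the 7 genes and lowered 2, where 30.5% of all 14824 genes tested were called higher and 30.8% lower (61.3% in all). Cblb had 27.3 and 29.3 CPM in melanoma cells with TG, against 16.3 and 16.4 CPM with vehicle (log2 change 0.79, SE 0.077, edgeR adjusted p = 6.2e-15), and Itch 191 and 198 CPM, against 108 and 102 CPM (0.89, SE 0.043). Nedd4 was lower, with 2225 and 2197 CPM with TG, against 2537 and 2488 CPM with vehicle (-0.18, SE 0.030, edgeR adjusted p = 1.8e-07). Dgkz was also lower, with 67.4 and 69.6 CPM with TG, against 150.0 and 148 CPM with vehicle (-1.12, SE 0.046, edgeR adjusted p = 6.0e-35). Dgka was at 3.83 and 4.09 CPM with TG, from 42 and 46 counts, against 0.976 and 0.634 CPM with vehicle, from 17 and 9 counts. Dgka shares 105 exon bases with Pmel on the other strand, a pigment gene abundant in melanoma. Because the strand of counting is not stated, reads of the 2 genes cannot be told apart there, whereas in T cells Pmel reached at most 1.79 CPM, against at least 166 CPM of Dgka.

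The TG effect in resting T cells minus that in melanoma cells passed the threshold for all 7 genes, where 47.4% of all genes did in either direction. It was higher in resting T cells for Rnf128 (difference 2.14), Dgkz (1.60), Cblb (0.71) and Nedd4 (0.47). It was lower in resting T cells for Dgka (-2.30), Itch (-0.99) and Ndrg1 (-0.25), and the Ndrg1 difference lost its call with raw library totals (-0.08, edgeR adjusted p = 0.30).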

How the data were processed

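RNA counts per gene were taken as the authors deposited them. The submitters' processing notes name the aligner STAR 2.6.0c, the counter HTSeq and the build GRCm38/mm10. The annotation release, strand setting and filters are not given in the sources used here. Identifiers were named with GENCODE M21 (46005 of 46603; the remaining 598 held 0.0759% of counts).

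The 12 T cell libraries were fitted together in R 4.3.3 with edgeR 4.0.16 (TMM scaling, default filterByExpr, robust quasi-likelihood, Benjamini-Hochberg over 13432 genes, called below 0.05). There were 6 residual degrees of freedom and a common biological coefficient of variation of 2.80%. Melanoma contrasts used all 20 libraries (14824 genes), of which 8 were melanoma. These included Ccdc101-knockout B16F10 cells with vehicle or TG, which entered the fit and its estimate of the spread but no contrast. The code was tested on simulated data. Recomputed settings included no filter or one of 5 CPM in 2 libraries, scaling by relative log expression, DESeq2 1.42.0, a replicate term, only the groups compared, no libraries labelled resting Atp2a2 KO, each library left out, and, chosen after seeing the data, raw library totals.

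The 7 genes and the lists were chosen with earlier results of these data known. From each list, up to 3 called genes with the largest change that reached 1 CPM in the group where they were higher were eligible for naming in each comparison, together with the 2 genes most like each member. Il2 in resting cells, Ifng and Atp2a2 levels, Orai1 and marker values describe libraries. Exons of Dgkz and Ndrg1 overlap genes on the other strand that had at most 23 counts over all libraries.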

Additional observations from a re-analysis of the deposited data

Results flagged for a closer look

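Each value here was singled out because the effect of TG on a gene differed between 2 kinds of cells by an interaction term in edgeR's quasi-likelihood fit. That term called 51.9% of all genes between activated and resting T cells, and 47.4% between resting T cells and melanoma cells. The share of all genes with single effects called in opposite directions was not computed. In activated minus resting control T cells the log2 effect of TG differed by -2.09 for Rnf128, -0.48 for Nedd4, -0.33 for Dgkz and -0.27 for Cblb, and by 0.80 for Ndrg1, 0.66 for Dgka and 0.43 for Itch. For Nedd4 and Itch both single effects were called with opposite signs, for Nedd4 at -0.21 in activated and 0.27 in resting cells and for Itch at 0.32 in activated and -0.12 in resting cells. The resting call of Itch was lost with raw library totals (0.00056). For Rnf128 the activated level rested on 22 to 38 counts a library.

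In resting control T cells minus control melanoma cells the log2 effect of TG differed by 2.14 for Rnf128, 1.60 for Dgkz, 0.71 for Cblb and 0.47 for Nedd4, and by -2.30 for Dgka, -0.99 for Itch and -0.25 for Ndrg1. In resting T cells Dgka was not called (-0.06). Its melanoma effect rested on 42 and 46 counts with TG and 17 and 9 with vehicle, where reads of Pmel may be included. The Ndrg1 difference lost its call with raw library totals (-0.08). Both single effects were called with opposite signs for Dgkz (0.47 in resting T cells and -1.12 in melanoma cells), Nedd4 (0.27 and -0.18) and Itch (-0.12 and 0.89). As above, the resting call of Itch was lost with raw library totals (0.00056).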

How the results depend on the processing

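Of 1043 recomputed changes of the 7 genes, 1007 kept their direction and side of the threshold, 25 lost a call, 5 gained one and 6 turned sign. The sign turned with raw library totals for Itch (0.00056) and Dgka (0.057) under TG at rest and for Nedd4 in TG alone against anti-CD3 alone (0.064). It turned without the filter for Ndrg1 in the libraries labelled resting Atp2a2 KO against activated controls (-0.031) and for Itch in activated KO against those libraries (0.0086). Leaving out 1 library gave Ndrg1 in the libraries labelled resting against activated controls -0.0032 to 0.066, the lowest without the first activated control library. None of these 6 values passed the threshold. Raw library totals raised the median change of all genes by 0.12 under TG at rest and by 0.11 in TG alone against anti-CD3 alone. The cause of the turns without the filter or with 1 library left out was not tested. Of the counts of members called, 2 rather than 1 of 7 passed without the filter in activated KO against the libraries labelled resting, and leaving out 1 library gave 3 to 5 in the libraries labelled resting against activated controls. With raw library totals 4 of 7 genes kept both their highest and lowest group.

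A term for replicate number changed no direction or call of the 84 member values. The replicate numbers did not pair the libraries, with correlations of deviations from the group means between -0.109 and 0.109.

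Over all genes, DESeq2 called 3156 genes for KO in activated cells against 4986 by edgeR, and 2684 against 4237 for the libraries labelled resting against activated controls. Activated KO against labelled resting gave 79 genes by edgeR, 35 by DESeq2, 184 without the filter and 15 to 191 with 1 library left out: 23 without the first and 191 without the second activated KO library, and 38 without the first and 15 without the second labelled resting one. Rnf128 below 5 CPM and changes under about 0.15 limit what depth and scaling can show.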
